A study of Mus musculus with 14 samples.

Results

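The complement and coagulation genes of liver comprised 34 genes: 13 of complement, 13 of clotting factors and the contact system, and 8 of inhibitors and fibrinolysis. They were chosen by name, with earlier results of these data known. A probe was assigned to a gene when the accession that the array design gives for it matched that gene's RefSeq accession. All 34 were matched, by 45 probes, and all were among the 21976 features tested. Liver RNA was measured in 14 female B6C3F1 mice, an inbred-strain hybrid widely used in toxicology, bought at 5 to 6 weeks of age. The groups were 4 mice gavaged with corn oil, 5 given furan at 1 mg/kg body weight and 5 given furan at 8 mg/kg, for 3 weeks. Every mouse, controls included, drank BrdU, a thymidine analogue, for 5 days before necropsy, and livers were taken 4 h after the last gavage, so no group lacked BrdU. Furan forms in heated food and is oxidised by liver cytochrome P450 to a reactive dialdehyde. Mice were housed in groups in cages, and the submitters call the mice of a dose biological replicates.

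Hepatocytes make most plasma proteins of both cascades. Complement starts when C1, the mannose-binding lectins or spontaneous turnover of C3 activates serine proteases, which cleave C3 and finally build the pore of C5b, C6, C7, C8 and C9. Clotting runs through proteases that depend on vitamin K to thrombin, which turns fibrinogen into fibrin; antithrombin, proteins C and S and the heparin cofactor restrain it, and plasmin dissolves the clot.

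Values are log2 ratios of the liver channel (Cy5) over a universal mouse reference RNA (Cy3) on the same array, so 1 unit is a doubling of that ratio; they compare a gene between mice, not one gene with another. The liver signal of every one of the 34 genes exceeded background clearly on all 14 arrays, on which 23065 to 29850 of the 55681 probes did so. The reference signal was well above background on 0 arrays for C9, on 2 for F13b and on 13 for C6, C8a and Masp1, so the ratios of C9 and F13b rest on a dim reference. The mean log2 ratio over 11 of 12 listed hepatocyte markers (Tf was not among the features tested) ranged over 6.86 to 8.39 in controls, 6.88 to 8.41 at 1 mg/kg and 6.81 to 8.22 at 8 mg/kg. The mean over 5 of 10 platelet markers lay between -0.52 and -0.20, and the other 5 (Ppbp, Gp1ba, Gp1bb, Gp9 and Gp5) were not among the features tested. In whole liver, fewer cells of a type and less RNA per cell cannot be told apart. Precision is limited by having 14 arrays.

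The 3 arrays of slide 3, 1 from each group, stood apart. There the ratios of 33 of the 34 genes were above the mean of slides 1, 2 and 4, by a median of 1.00 (range -0.11 to 1.62), against a median of 0.05 over all 21976 features. The 11 measured hepatocyte markers were higher by a median of 1.30, and the 447 features with a ratio over 5 on the other slides by 0.81. After scaling between arrays, the liver channel of the 34 genes was higher by a median of 0.09 on slide 3, whereas their reference channel was lower by 0.96. For these genes slide 3 differed mainly in the reference signal. Slide was a block in the fits reported, and calls are given again without slide 3.

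**Figure D1:**
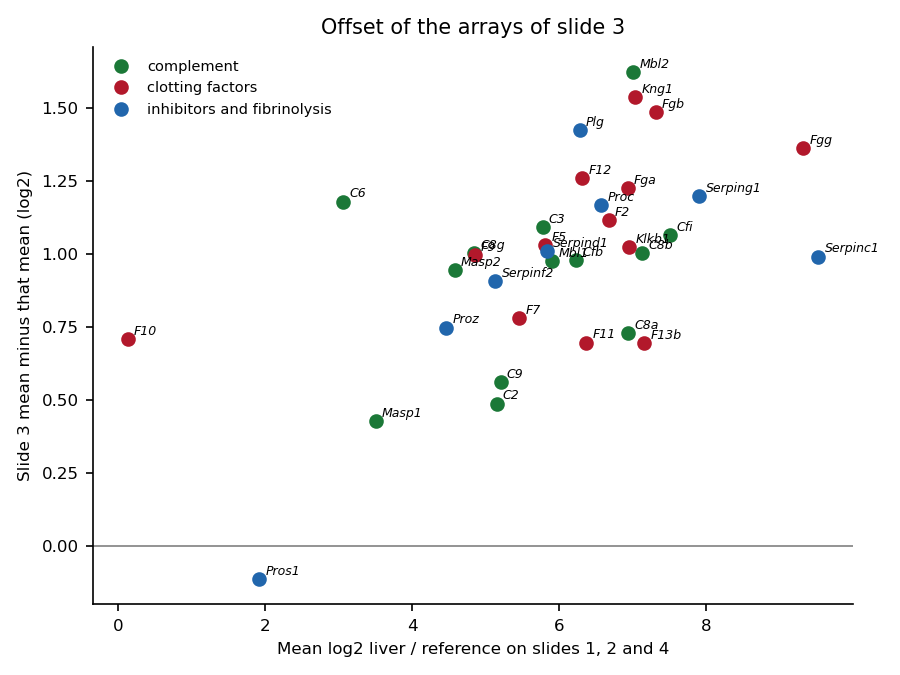
Mean log2 ratio on slide 3 minus the mean on slides 1, 2 and 4 (vertical axis) against that mean (horizontal axis), 1 point per gene, coloured by role. Pros1, at -0.11, is the single gene below 0; Mbl2, at 1.62, is the highest.

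At 8 mg/kg against control, 1 of the 34 rose (F10) and 2 fell (Masp1 and Pros1), while 31 did not pass limma's test at an adjusted p of 0.05. Over all features 2.73% rose and 1.36% fell in that comparison. The 34 differences had a median of -0.10 and ran from -0.43 to 0.46, with 24 below 0, against a median of 0.00 over all features, of which 49.49% were below 0. Over 31 alternatives the median of the 34 ranged from -0.18 to 0.06, and 14 to 33 were below 0, the lowest count being with median centring. For 29 of the 34 the 95% interval at the probe used lay wholly within a 1.5-fold change in either direction. The exceptions were C8a, C9, Masp1, F10 and Pros1. Other probes were not counted. Among these, the ones of F5, F10, C8a, C8g, Kng1 and Masp2, given below, differed from the probe used. Pros1 was the single gene with all 5 mice at 8 mg/kg below all 4 controls, an arrangement found in 2.13% of all features (the opposite one, held by none of the 34, in 3.46%). Without slide 3, 0 of the 34 rose and 0 fell in limma's test.

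At 1 mg/kg against control, 0 of the 34 rose and 0 fell, the same as the 0% and 0% called among all features, of which 6.87% had an unadjusted p under 0.05. The median difference was 0.06, with 10 of 34 below 0 (-0.06 to 0.22 and 1 to 26 over the alternatives), and for 33 of 34 genes the interval lay within a 1.5-fold change; C6, a subunit of the terminal pore, was the exception (0.31 ± 0.16, SE, n = 5 against 4). The same held without slide 3, where 0 rose and 0 fell.

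At 8 against 1 mg/kg, F10 rose and 4 genes fell (C3, Masp1, F11 and F13b), against 2.42% and 2.87% of all features. Here 30 of the 34 lay below 0, with a median of -0.18, while 56.38% of all features did, with a median of -0.02. Both comparisons share the 8 mg/kg mice, and those with control share the controls. Without slide 3, 1 of the 34 fell (F13b) and 29 lay below 0, with a median of -0.17. Within slides the median was -0.27 on slide 1, -0.26 on slide 3, -0.17 on slide 4 and -0.18 on slide 5, with 27 to 33 genes below 0, but 0.03 on slide 2, with 12 below 0. The lower ratios at the higher dose were therefore seen on 4 of 5 slides.

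**Figure D2:**
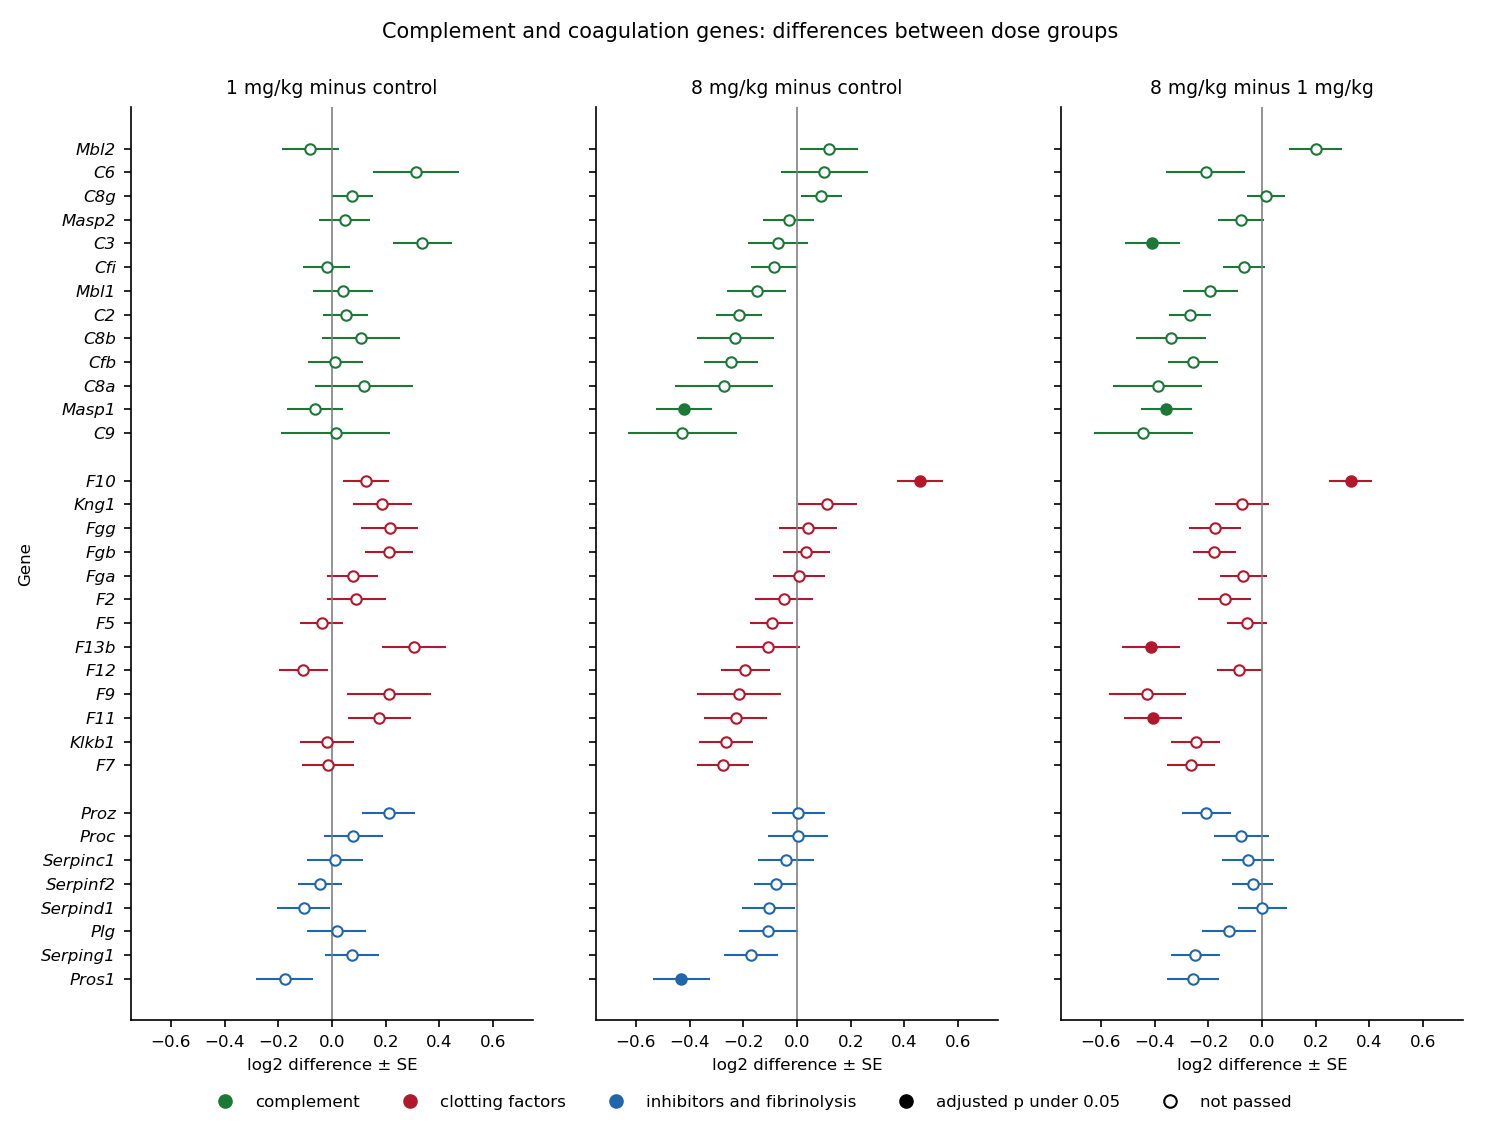
Log2 differences with standard errors (horizontal axis) for the 34 genes (vertical axis), in 3 panels for the 3 comparisons; colour gives the role and filled points passed limma's test. In the panel of 8 against 1 mg/kg, 30 of 34 points lie left of 0.

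Complement, 13 genes, had 1 fall and 0 rises at 8 mg/kg against control (median -0.15, 10 of 13 below 0), and 2 falls and 0 rises against 1 mg/kg (median -0.26, 11 of 13 below 0). Masp1, whose product is a protease bound to mannose-binding lectin, gave 3.57, 3.73, 4.26 and 3.53 in control mice 1 to 4. At 1 mg/kg it gave 3.53, 3.37, 3.51, 3.94 and 3.81 in mice 1 to 5, and at 8 mg/kg 3.40, 3.60, 2.93, 3.36 and 3.102. The mouse at 8 mg/kg on slide 3 (3.60) overlapped the lower controls, and the other four lay below every control. Masp1 fell by 0.42 ± 0.10 on the log2 scale against control (SE, 1.34-fold, adjusted p = 0.0381) and by 0.36 ± 0.10 against 1 mg/kg (adjusted p = 0.0458). It was lower in 4 of 4 slides against control, by 0.17 to 0.66. Without slide 3 the differences were -0.34 (adjusted p = 0.148) and -0.36 (adjusted p = 0.0745). The scanner's own processed signals gave -0.14 against control, less than the main value by over 1.5 times.

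The other lectin pathway genes did not pass. Masp2, the protease that cleaves C4 and C2, differed by -0.03 ± 0.09 at 8 mg/kg against control, while its 2 further probes gave -0.23 ± 0.10 and -0.27 ± 0.11 (adjusted p = 0.22 and 0.218). The lectins Mbl1 and Mbl2 differed by -0.15 ± 0.11 and 0.12 ± 0.11. C2, the protease part of the classical and lectin convertase, differed by -0.22 ± 0.09 (adjusted p = 0.168). Its counterpart in the alternative pathway, Cfb, differed by -0.24 ± 0.10 (adjusted p = 0.191). Cfi, which encodes the protease that inactivates C3b, differed by -0.09 ± 0.09.

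C3, the protein on which all activation routes meet, gave 5.52, 5.72, 6.79 and 5.79 in controls. It gave 5.85, 5.95, 5.65, 7.20 and 6.40 at 1 mg/kg and 5.33, 6.60, 5.39, 6.13 and 5.56 at 8 mg/kg. The groups overlapped, and the highest mouse of each was the one on slide 3. C3 fell by 0.41 ± 0.10 from 1 to 8 mg/kg (1.33-fold, adjusted p = 0.0346), lower in 5 of 5 slides, while its difference from control at 8 mg/kg was -0.07 ± 0.11 and at 1 mg/kg 0.34 ± 0.11 (adjusted p = 0.705). The call was lost without slide 3 (-0.36, adjusted p = 0.114), and the liver channel alone gave -0.04 (adjusted p = 0.786). A second C3 probe gave -0.40 ± 0.12 (adjusted p = 0.0745 in a fit of every probe).

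Among the terminal genes, C9, whose product lines the pore, had the largest difference of its role. It gave 5.51, 5.43, 6.26 and 4.71 in controls, 5.48, 5.18, 5.24, 5.69 and 5.71 at 1 mg/kg, and 4.498, 5.34, 5.03, 4.97 and 5.26 at 8 mg/kg. Control mouse 4 was below 4 of the 5 mice at 8 mg/kg, so the groups overlapped. The difference was -0.43 ± 0.20 (95% interval -0.86 to 0.01, adjusted p = 0.255), and it passed in 1 of 31 alternatives, that without control mouse 4 (-0.70, adjusted p = 0.0430). C6 differed by 0.10 ± 0.16.

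Of the 13 clotting and contact genes, 1 rose and 0 fell at 8 mg/kg against control (median -0.09, 8 of 13 below 0), and 1 rose and 2 fell against 1 mg/kg (median -0.17, 12 of 13 below 0). The rise was that of F10, which encodes factor X, the protease that activates prothrombin. Its brighter probe gave -0.11, 0.04, 0.59 and -0.05 in controls, -0.16, -0.48, 0.01, 0.81 and 0.32 at 1 mg/kg, and 0.21, 1.12, -0.09, 0.45 and 0.48 at 8 mg/kg. Within every slide the 8 mg/kg mouse was the highest. That probe rose by 0.46 ± 0.09 against control (1.37-fold, adjusted p = 0.011) and by 0.33 ± 0.08 against 1 mg/kg (adjusted p = 0.0289). Without slide 3 the values were 0.43 (adjusted p = 0.0574) and 0.34 (adjusted p = 0.0663), and the liver channel alone gave 0.07 (adjusted p = 0.735) and 0.21 (adjusted p = 0.202).

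The other F10 probe, designed to the same accession, did not carry this rise. It gave 5.76, 5.55, 6.91 and 5.83 in controls, 5.68, 5.74, 5.64, 7.07 and 6.185 at 1 mg/kg, and 5.70, 6.67, 5.54, 6.04 and 5.68 at 8 mg/kg. Its difference from control was -0.00 ± 0.10 (adjusted p = 0.995 in a fit of every probe) and from 1 mg/kg -0.14 ± 0.09 (adjusted p = 0.398). The brighter probe's mean ratio over the 14 arrays was 0.22, about equal in liver and reference RNA, whereas the other probe's was 6.00; the ratios of the other 33 genes averaged 1.85 to 9.68. Which of the probes measures the F10 transcript in liver was not tested, and the rise is that of 1 probe.

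**Figure D3:**
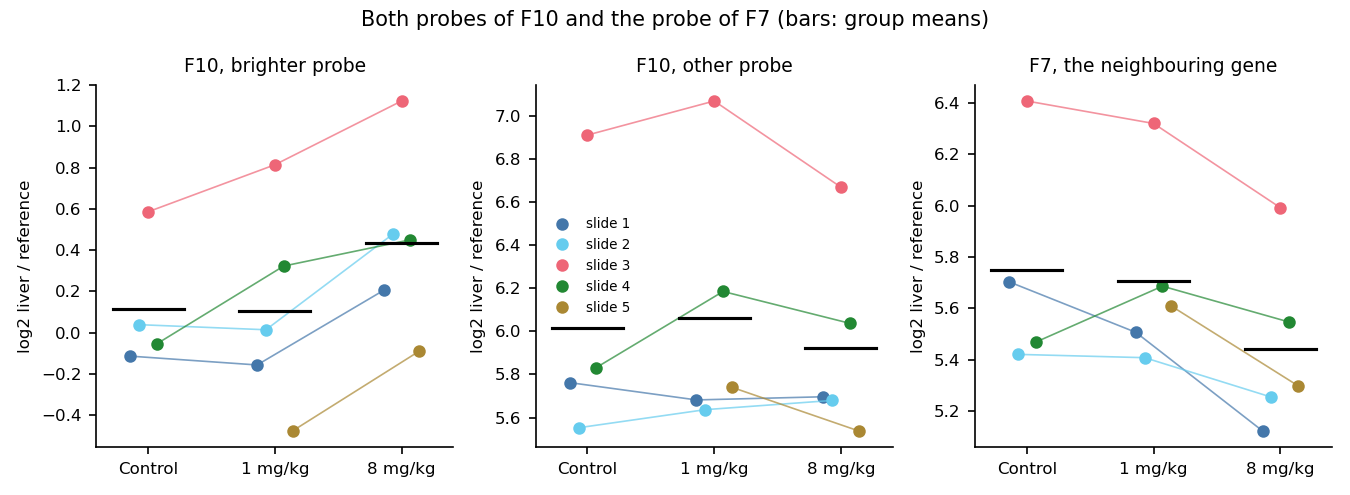
Log2 ratios (vertical axes, which differ in range) by group (horizontal axis) for the brighter F10 probe, the other F10 probe and F7; points are mice coloured and joined by slide, bars are group means. The brighter probe is highest at 8 mg/kg within every slide, the other is not.

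None of the other vitamin K-dependent proteases passed at 8 mg/kg against control. F7, the partner of tissue factor, gave 5.70, 5.42, 6.41 and 5.47 in controls, 5.51, 5.61, 5.41, 6.32 and 5.69 at 1 mg/kg, and 5.12, 5.99, 5.30, 5.55 and 5.25 at 8 mg/kg. The groups overlapped, and the difference was -0.28 ± 0.10 (adjusted p = 0.125), lower in 3 of 4 slides. The second F7 probe gave -0.21 ± 0.10, and the liver channel alone -0.35, which passed (adjusted p = 0.0456). F9, which encodes the protease missing in haemophilia B, differed by -0.22 ± 0.16, with 8 mg/kg mouse 5 the lowest of all at 4.08. F2, prothrombin, differed by -0.05 ± 0.11. F5, the cofactor of factor X, differed by -0.09 ± 0.08 at the probe used and by -0.40 ± 0.15 at its other probe (adjusted p = 0.161).

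The 4 genes of the contact route differed by -0.27 ± 0.10 (Klkb1, plasma prekallikrein), -0.23 ± 0.12 (F11), -0.19 ± 0.09 (F12) and 0.11 ± 0.11 (Kng1, kininogen) at 8 mg/kg against control. The probe of another Kng1 transcript gave -0.09 ± 0.10, the opposite sign. F11, which activates factor IX, gave 6.48, 6.46, 7.18 and 6.10 in controls, 6.64, 6.56, 6.26, 7.26 and 6.68 at 1 mg/kg, and 6.14, 6.74, 5.97, 6.25 and 6.27 at 8 mg/kg. It fell by 0.41 ± 0.11 from 1 to 8 mg/kg (1.32-fold, adjusted p = 0.0434), although on slide 2 the pair differed by 0.01. The liver channel alone gave -0.39 (adjusted p = 0.0101), the fit without slide 3 -0.38 (adjusted p = 0.114). At 1 mg/kg against control F11 differed by 0.18 ± 0.12 (adjusted p = 0.77).

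F13b, the carrier subunit of the enzyme that cross-links fibrin, gave 7.22, 7.20, 7.80 and 6.81 in controls. It gave 7.64, 7.15, 7.10, 7.93 and 7.60 at 1 mg/kg and 6.99, 7.81, 6.75, 6.94 and 6.86 at 8 mg/kg. Apart from the slide 3 mouse, all mice at 8 mg/kg lay below all mice at 1 mg/kg. F13b fell by 0.41 ± 0.11 from 1 to 8 mg/kg (1.33-fold, adjusted p = 0.0428), lower in 5 of 5 slides. It kept the call without slide 3 (-0.49, adjusted p = 0.0456), whereas the liver channel alone gave -0.25 (adjusted p = 0.0643). Against control the difference was -0.11 ± 0.12 at 8 mg/kg and 0.31 ± 0.12 at 1 mg/kg (adjusted p = 0.705).

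**Figure D4:**
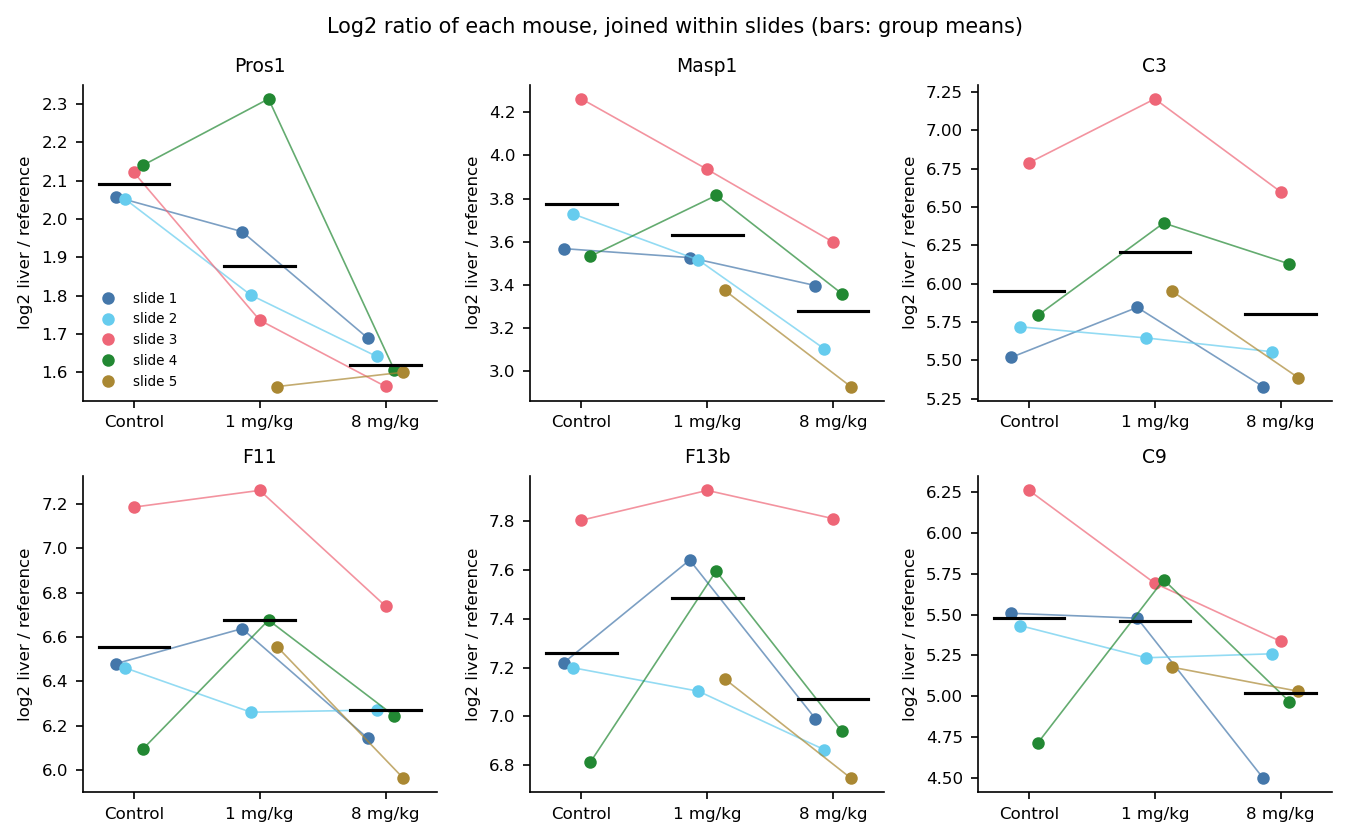
Log2 ratio of each mouse (vertical axis, range differs between panels) by group (horizontal axis), coloured and joined by slide, with bars at group means, for Pros1, Masp1, C3, F11, F13b and C9. For Pros1 the 8 mg/kg mice sit between 1.56 and 1.69 and the controls between 2.05 and 2.14; in the other panels slide 3 lies highest in controls.

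Of the 8 inhibitor and fibrinolysis genes, 0 rose and 1 fell at 8 mg/kg against control (median -0.09, 6 of 8 below 0), and 0 passed against 1 mg/kg (median -0.10, 7 of 8 below 0). Pros1, which encodes protein S, the cofactor of activated protein C, gave 2.06, 2.05, 2.12 and 2.14 in controls. At 1 mg/kg it gave 1.97, 1.56, 1.80, 1.74 and 2.31, and at 8 mg/kg 1.69, 1.56, 1.60, 1.61 and 1.64. The control and 8 mg/kg groups did not overlap, and the mice at 1 mg/kg spread across both. Pros1 fell by 0.43 ± 0.11 against control (SE, n = 5 against 4; 1.35-fold, adjusted p = 0.0376), lower in 4 of 4 slides, by 0.37 to 0.56. It was the one gene that slide 3 did not raise. Without slide 3 the difference was -0.39 (adjusted p = 0.13), and the liver channel alone gave -0.45 (adjusted p = 0.0111). At 8 against 1 mg/kg it was -0.26 ± 0.10 (adjusted p = 0.143).

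Serping1, the C1 inhibitor, which also blocks kallikrein and factor XII, gave 8.00, 7.70, 9.26 and 7.98 in controls, 7.96, 7.81, 7.72, 9.20 and 8.35 at 1 mg/kg, and 7.63, 8.86, 7.52, 8.25 and 7.55 at 8 mg/kg. The groups overlapped, and the difference from control was -0.17 ± 0.10 (adjusted p = 0.361). The others differed from control at 8 mg/kg by -0.11 to 0.00. They were Plg (plasminogen, -0.11 ± 0.11), Serpind1 (heparin cofactor II, -0.10 ± 0.10), Serpinf2 (the plasmin inhibitor, -0.08 ± 0.08), Serpinc1 (antithrombin, -0.04 ± 0.10), Proc (protein C, 0.00 ± 0.11) and Proz (protein Z, 0.00 ± 0.10). The interval of antithrombin ran from -0.26 to 0.18 and that of protein C from -0.23 to 0.24.

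By role, the medians at 8 mg/kg against control were -0.15 for complement, -0.09 for clotting factors and -0.09 for inhibitors, in a description without a test. Within slides 1 to 4 the complement median was -0.19, -0.16, -0.38 and -0.03. The clotting median was -0.23, 0.02, -0.14 and 0.15, and the inhibitor median -0.08, 0.04, -0.39 and -0.01. Complement was thus below 0 on 4 of 4 slides, the clotting genes on 2 of 4 and the inhibitors on all but slide 2. On slide 4, 7 of the 13 complement genes were below 0. Single arrays moved these medians by over 1.5 times: complement was -0.09 without control 3 and -0.23 without control 4, clotting -0.06 without control 1 or 8 mg/kg mouse 1, and inhibitors -0.05 without control 3 or 8 mg/kg mouse 2 and -0.14 without 8 mg/kg mouse 5. Over 31 alternatives they ranged from -0.26 to -0.02, from -0.16 to 0.10 and from -0.18 to 0.05. Against 1 mg/kg the medians were -0.26, -0.17 and -0.10 in the same order, and over 31 alternatives they ranged from -0.31 to -0.08, from -0.22 to -0.08 and from -0.17 to -0.04. With arrays centred on their median in place of loess, the median of all features at 8 mg/kg against control moved to 0.14, and complement lay at -0.02, clotting factors at 0.10 and inhibitors at 0.05, all below that shift, so the sign of the last 2 depends on the scaling.

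Fibrinogen is assembled from the products of Fga, Fgb and Fgg, and C8 from those of C8a, C8b and C8g. Fga gave 6.91, 6.64, 8.06 and 7.22 in controls, 6.93, 7.46, 6.93, 8.22 and 7.07 at 1 mg/kg, and 6.63, 8.19, 7.41, 7.11 and 6.93 at 8 mg/kg. Fgb gave 7.00, 7.37, 8.77 and 7.27, then 7.23, 7.99, 7.39, 8.92 and 7.61, then 7.02, 8.71, 7.60, 7.57 and 7.35 in the same order. Fgg gave 9.11, 9.20, 10.72 and 9.26, then 9.54, 9.30, 9.11, 10.71 and 9.66, then 9.14, 10.61, 8.87, 9.55 and 9.28. The groups overlapped for all 3 chains, whose differences from control at 8 mg/kg were 0.01 ± 0.10, 0.04 ± 0.09 and 0.04 ± 0.11. Their intervals, -0.20 to 0.21, -0.15 to 0.22 and -0.19 to 0.27, leave room for less than a 1.5-fold change either way.

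C8a gave 7.03, 7.16, 8.01 and 6.45 in controls, 7.35, 6.82, 6.71, 7.71 and 7.44 at 1 mg/kg, and 6.58, 7.26, 6.59, 6.74 and 6.91 at 8 mg/kg. C8b gave 7.11, 7.28, 8.45 and 6.82, then 7.38, 7.01, 7.03, 8.11 and 7.59, then 6.83, 7.82, 6.70, 6.99 and 7.10. C8g gave 4.67, 4.65, 5.86 and 4.97, then 4.70, 4.62, 4.80, 5.87 and 5.11, then 4.81, 5.81, 4.66, 5.06 and 4.82. Again the groups overlapped, with differences from control at 8 mg/kg of -0.27 ± 0.18, -0.23 ± 0.14 and 0.09 ± 0.08. A second C8a probe gave -0.06 ± 0.18. A second C8g probe gave -0.24 ± 0.09 (adjusted p = 0.159), the opposite sign. The second Fga probe gave 0.01 ± 0.12 at 8 against 1 mg/kg where the probe used gave -0.07 ± 0.09. At 1 mg/kg against control, where no probe of these genes passed, the probes of F5, F7, C8g, Kng1 and Masp2 also differed in sign.

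After subtracting slide means, C8a and C8b varied together over the 14 mice. Pearson's r was 0.98 and Spearman's rho 0.96, each with p = 0.000386 in an exact two-sided test over all 2592 rearrangements within slides, the smallest p they gave, and an adjusted p = 0.00231 over the 6 pairs of chains. Without the 2 mice farthest from the median of C8a, r was 0.97. Fgb and Fgg followed each other with r = 0.90 (exact p = 0.0154, adjusted p = 0.0463) and rho = 0.86 (adjusted p = 0.0718), and r was 0.85 without the 2 farthest mice. The brighter Fga probe followed neither (r = 0.06 with Fgb and 0.07 with Fgg), and the brighter C8g probe neither C8a (r = -0.00) nor C8b (r = 0.03). The probe decided these values: the second C8g probe gave r = 0.66 with both C8a and C8b (adjusted p = 0.0513 over 7 pairs that hold a second probe), and the second Fga probe r = 0.40 with Fgb and 0.47 with Fgg (adjusted p = 0.279 and 0.289). The second C8a probe kept r = 0.92 with C8b (adjusted p = 0.0027). With group means removed as well, the pair C8a and C8b kept r = 0.98 and the pair Fgb and Fgg r = 0.84. Correlations between genes of different proteins were not computed. Whether chains of 1 protein vary together more closely than other pairs was therefore not tested. After subtracting slide means alone, C9 gave 0.58 where C8a was highest (0.56, 1 mg/kg mouse 5). It gave -0.42 where C8a was lowest (-0.43, control mouse 4). The lowest C9 value, -0.66, was that of 8 mg/kg mouse 1, where C8a gave -0.41. These mice were picked by their extreme values, and whether C9 varied with C8a was not tested.

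**Figure D5:**
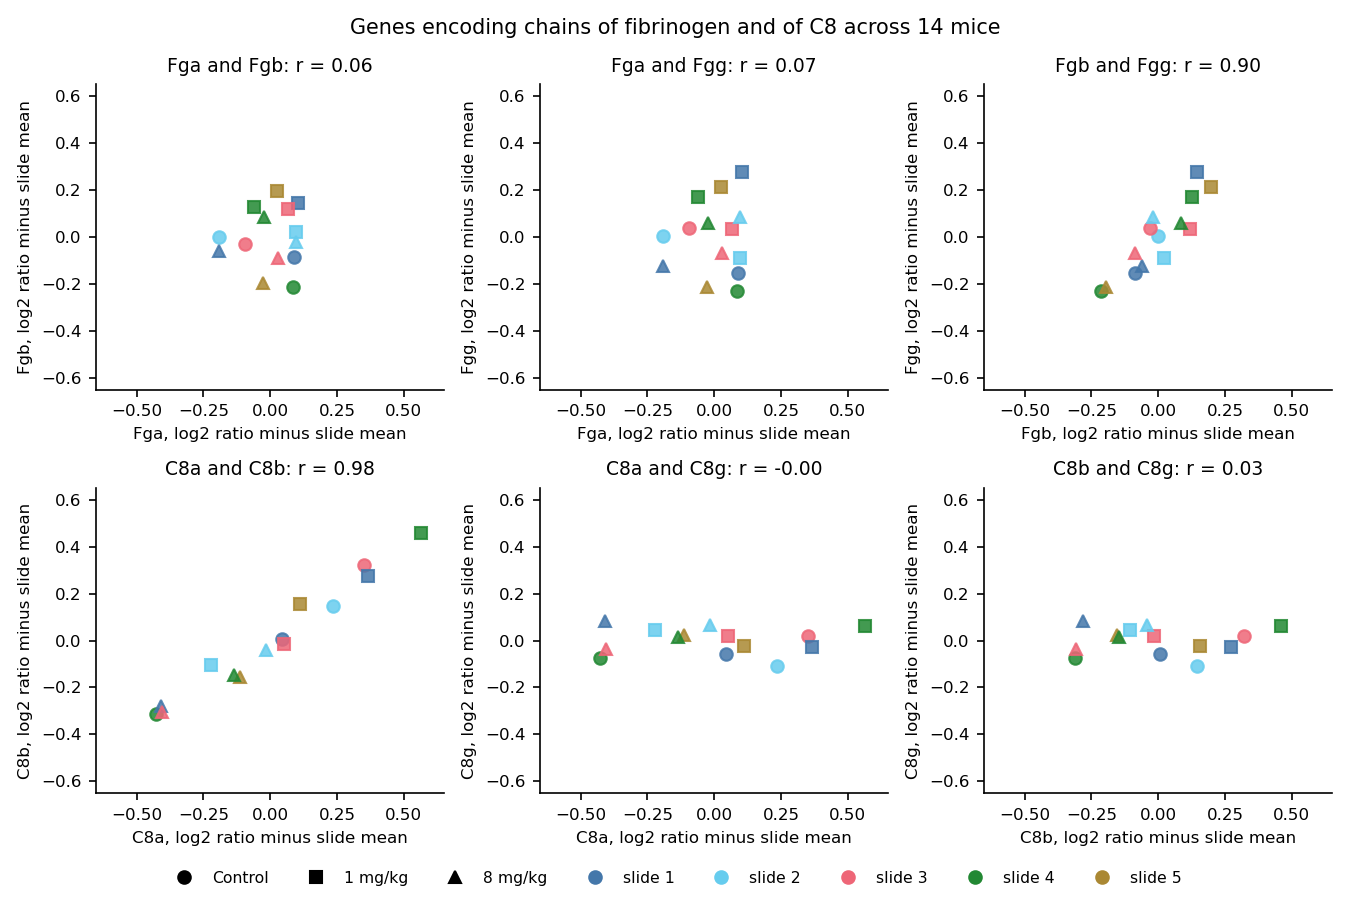
Log2 ratios minus the slide mean for the 6 pairs of chains, 1 point per mouse, with colour for the slide and shape for the dose; both axes run from -0.65 to 0.65. C8a and C8b lie on a line (r = 0.98), and the C8g probe drawn, the brighter of 2, shows no such line (r = -0.00); the other probe gave r = 0.66.

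The stretches of 250 bases before the annotated starts of the 3 fibrinogen genes and of C8a and C8b are shown so that their upstream sequences can be compared. They come from RefSeq, build GRCm38.p6, and are written along the gene's strand. Fga is at chr3:83025903-83026152 (+ strand), Fgb at chr3:83049864-83050113 (- strand) and Fgg at chr3:83007474-83007723 (+ strand). C8a is at chr4:104876399-104876648 (- strand) and C8b at chr4:104766067-104766316 (+ strand). Capitals mark matches on either strand to TTCNNNGAA (STAT3, the mediator of interleukin-6) or GGGNNTTCC (NF-kB).
Fga: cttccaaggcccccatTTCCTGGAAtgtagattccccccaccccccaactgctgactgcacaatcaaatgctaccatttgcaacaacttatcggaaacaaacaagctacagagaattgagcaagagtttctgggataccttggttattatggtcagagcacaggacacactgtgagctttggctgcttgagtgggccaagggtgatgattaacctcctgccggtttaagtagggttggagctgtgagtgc
Fgb: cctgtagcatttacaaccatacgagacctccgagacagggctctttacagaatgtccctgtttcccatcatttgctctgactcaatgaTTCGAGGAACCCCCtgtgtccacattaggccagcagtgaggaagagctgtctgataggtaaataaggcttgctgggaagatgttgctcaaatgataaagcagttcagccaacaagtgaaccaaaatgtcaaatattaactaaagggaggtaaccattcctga
Fgg: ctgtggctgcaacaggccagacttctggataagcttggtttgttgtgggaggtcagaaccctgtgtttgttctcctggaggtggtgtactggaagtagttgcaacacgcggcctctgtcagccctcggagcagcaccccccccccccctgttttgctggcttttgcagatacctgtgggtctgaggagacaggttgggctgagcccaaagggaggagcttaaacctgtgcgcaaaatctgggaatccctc
C8a: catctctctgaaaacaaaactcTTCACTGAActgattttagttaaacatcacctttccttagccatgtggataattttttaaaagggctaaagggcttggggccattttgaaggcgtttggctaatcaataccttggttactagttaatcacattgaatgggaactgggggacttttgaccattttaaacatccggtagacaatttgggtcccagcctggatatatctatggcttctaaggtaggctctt
C8b: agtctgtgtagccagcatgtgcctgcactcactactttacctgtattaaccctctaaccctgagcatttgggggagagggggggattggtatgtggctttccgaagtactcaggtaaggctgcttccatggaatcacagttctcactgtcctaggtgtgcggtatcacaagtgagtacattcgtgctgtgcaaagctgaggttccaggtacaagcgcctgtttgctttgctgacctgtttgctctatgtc

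In Fgb the STAT3 and NF-kB matches overlap, and are 1 run of capitals. A match to TTCNNNGAA begins 234 bases before the start of Fga, 162 before that of Fgb and 228 before that of C8a, and the windows of Fgg and C8b hold none of the motifs searched. Of the 34 genes, 26 had a promoter in the table. Over 300 bases, 250 before and 50 after the start, TTCNNNGAA was found in 6 of the 26 (23.1%: C8a, F9, Fga, Fgb, Masp2 and Pros1) against 8.3% of all 32851 promoters, TGNACTTTG (HNF4) in 2 (F9 and Serpind1) against 1.41%, TTNNGCAAT (C/EBP) in 1 (C9) against 2.18%, and GGGNNTTCC in 1 (Fgb) against 5.82%. The 26 were counted per gene and the 32851 per promoter, so the shares are in unlike units. A match is a description of these letters and not of binding.

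Several members are neighbours in the genome with no annotated protein-coding gene between them. At 8 mg/kg against control, Cfb and C2 on chromosome 17 differed by -0.24 and -0.22, C8b and C8a on chromosome 4 by -0.23 and -0.27, and F11 and Klkb1 on chromosome 8 by -0.23 and -0.27. F7, F10 and Proz, also in a row on chromosome 8, differed by -0.28, 0.46 and 0.00, the middle value being that of the brighter F10 probe.

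Other genes of both systems, taken from a list of names also chosen with earlier results known, were counted beside the 34. Of 28 measured complement genes outside the 34, 0 rose and 2 fell at 8 mg/kg against control, and 0 rose and 8 fell against 1 mg/kg, or 28.6% against 2.87% of all features. Among the 8 were C1ra and C1rb (proteases of C1, -0.34 ± 0.08 and -0.48 ± 0.08), C1rl (-0.40), C4b (-0.34), Cfhr2 (-0.34), Cd59a (an inhibitor of the pore, -0.41) and Fcna (a ficolin, -0.31). C4b and Cd59a were the 2 that also fell against control, by 0.32 and 0.40. The count against 1 mg/kg was 4 without slide 3 and 2 without slide 5. With 1 array left out it was 2 without 1 mg/kg mouse 1 or 2 or 8 mg/kg mouse 1 or 3, 3 without 1 mg/kg mouse 5, 4 without 8 mg/kg mouse 5, 5 without 1 mg/kg mouse 3 or 4 or 8 mg/kg mouse 2, and 6 to 8 otherwise. Against control, 0 fell without slide 3, without control 1 or 3 and without 8 mg/kg mouse 1 or 5. C1ra and C1rb, and C4b and C4a, are near-identical copies, so their probes may not tell them apart. At 8 against 1 mg/kg, 27 of the 28 were below 0 (median -0.20). At 8 mg/kg against control 16 of the 28 were below 0 (median -0.03). At 1 mg/kg against control only 1 was (median 0.17), beside 39.58% of all features (median 0.03). The lower ratios against 1 mg/kg thus came with ratios above control at 1 mg/kg.

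Of 27 measured clotting and fibrinolysis genes outside the 34, 1 fell at 8 mg/kg against control, Hgfac, the activator of hepatocyte growth factor (-0.50 ± 0.11, adjusted p = 0.0292). Against 1 mg/kg 3 fell, namely Hgfac (-0.40), Vwf (von Willebrand factor, -0.39) and Adamts13, the protease that cleaves it (-0.44), and 1 did so without slide 3. Their count was 0 without 1 mg/kg mouse 1 or 2 or 8 mg/kg mouse 1, 2 or 3, and the fall of Hgfac against control was lost without slide 3, control 1, 3 or 4 or 8 mg/kg mouse 1. In the vitamin K cycle, Nqo1, a quinone reductase, rose by 0.69 ± 0.11 against control and by 0.71 against 1 mg/kg. The carboxylase Ggcx and the reductase Vkorc1 did not pass (-0.24 ± 0.12 and -0.17 ± 0.09 against control). Of 5 measured genes of the cycle, none fell.

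Among 18 liver transcription factors, Atf4, of the integrated stress response, rose by 0.64 ± 0.14 at 8 mg/kg against control and Nr0b2, a corepressor induced by bile acids, fell by 1.02 ± 0.27. Hnf4a (0.06 ± 0.08), Cebpa (-0.17 ± 0.11) and Stat3 (0.23 ± 0.08) did not pass. Of 26 genes of the interleukin-6 and STAT3 response, 1 rose (Cp, ceruloplasmin, 0.39 ± 0.10) and 1 fell (Orm2, an orosomucoid, by 0.39 ± 0.10), and Saa3 rose against 1 mg/kg (0.40 ± 0.11). Without slide 3, Nqo1 (0.81 and 0.71), Atf4 (0.78 against control) and the pancreatic amylase Amy2a5 (-0.67 and -0.90) kept their calls. Nr0b2 (-0.59 against control, adjusted p = 0.0866), Cp (0.40, adjusted p = 0.108), Orm2 (-0.28, adjusted p = 0.195), Saa3 (0.39, adjusted p = 0.113) and Lrat (-0.57, adjusted p = 0.0761) did not. Socs3, the feedback inhibitor of STAT3 signalling, differed by 0.04 ± 0.09. Alb, albumin, differed by 0.03 ± 0.12, and 0 of 11 measured hepatocyte markers passed in any comparison, with all 11 below 0 at 8 against 1 mg/kg (median -0.11). Most markers of other cells lay below 0 there too. These were 10 of 10 of sinusoidal endothelium (median -0.19, beside -0.18 for the 34 genes) and 10 of 11 of Kupffer cells (median -0.12). For stellate cells it was 9 of 10 (median -0.12) and for platelets 4 of 5 (median -0.16). Of the cholangiocyte markers 4 of 6 did, with a median of -0.02, that of all features. At 1 mg/kg against control, 2 of 11 hepatocyte, 1 of 10 endothelial, 2 of 11 Kupffer and 2 of 10 stellate markers were below 0. Their medians there were 0.09, 0.14, 0.18 and 0.20. Platelets had 2 of 5 below 0 and cholangiocytes 3 of 6. The lists overlap. C1qa, C1qb, C1qc and Vsig4 (Kupffer cells) and Colec11 (stellate cells) are also among the 28 complement genes outside the 34. Serpina1a (hepatocytes) is also among the clotting and fibrinolysis genes outside the 34. The mean endothelial marker ratio ranged over 3.09 to 3.56 in controls, 3.03 to 3.63 at 1 mg/kg and 2.88 to 3.60 at 8 mg/kg. The part of any of these in the lower ratios of the 34 genes was not tested. Among markers of other cells, Lrat (stellate cells) fell against 1 mg/kg by 0.64 and Amy2a5 (pancreas) fell by 0.73 against control and by 0.81 against 1 mg/kg; of 8 pancreas markers, Cpa1, Prss2, Pnlip and Try4 were not among the features tested. The other 9 stellate markers did not pass against 1 mg/kg, and none of the 10 passed against control. The other 3 measured pancreas markers passed in neither comparison. None of the measured markers of Kupffer cells (11), sinusoidal endothelium (10), platelets (5) or cholangiocytes (6) passed.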

How the data were processed

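Spot intensities of 2-colour Agilent arrays came, per the file headers, from Feature Extraction 10.7.3.1. The same deposited files gave log10 ratios of red over green processed signals, per the file headers. The deposited values of the authors are linear ratios of sample over reference (array medians 0.9765 to 0.9897; their log2 values correlate at 0.992 to 0.995 with those used here). No source used here states their normalization, and they served, like the log10 ratios, as an alternative. Each array had 62976 features, 3671 of them controls. Median intensities were corrected with normexp (offset 50), log2 ratios were loess-normalized within arrays, and 178 to 336 flagged spots per array were left out; no spot was saturated. Accessions were matched to RefSeq (GRCm38.p6), naming 26413 of 55681 probes; array coordinates are of an older build and are not used.

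Probes well above background in the liver channel on at least 4 arrays were kept (28867), the brightest per gene standing for it, giving 21976 features, 13773 with a symbol. Groups were compared by limma 3.58.1 (its lmFit and eBayes steps; R 4.3.3) on 14 arrays with slide as a block, because the submitters describe a randomized block design; p-values were adjusted by Benjamini-Hochberg over all features, with a threshold of 0.05. The steps were tested on simulated data. Each slide was scanned on its own, so slide and scan cannot be told apart; 4 slides held all 3 groups and slide 5 no control.

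The 34 genes, their roles and the lists were chosen with earlier results of these data known. Values per mouse are given for genes called in any comparison, the 2 per role with the largest difference at 8 mg/kg against control, and the chains of fibrinogen and C8. Genes of other lists are named where called, and Alb, Stat3, Socs3, Hnf4a and Cebpa always, except items that are not reported here; C6, further probes and neighbours were added. Results were recomputed under 28 other settings and 3 chosen after seeing the data (the probe with the highest ratio, the liver channel alone, without slide 5), and the chain correlations with second probes, also chosen then. Plots used matplotlib 3.10.9 and Python 3.11.15.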

Additional observations from a re-analysis of the deposited data

Results flagged for a closer look

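In 10 of 102 groups (34 genes in 3 dose groups) 1 mouse lay far from the others of its group by Dixon's criterion, which chance meets in about 1 in 20 groups. All 10 were on slide 3, whose ratios were higher for 33 of the 34 genes. Control mouse 3 gave 7.05 for Mbl1 (the other controls 5.86 to 5.94), 5.89 for F9 (4.79 to 4.89), 10.72 for Fgg (9.11 to 9.26) and 5.09 for Proz (4.39 to 4.43). The mouse on slide 3 at 1 mg/kg, replicate 4, gave 7.48 for Cfb (6.13 to 6.52). At 8 mg/kg, replicate 2 gave 6.72 for Mbl1 (5.53 to 5.84), 6.72 for F5 (5.67 to 5.92), 7.81 for F13b (6.75 to 6.99), 7.92 for Klkb1 (6.65 to 6.91) and 5.23 for Proz (4.28 to 4.47).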

How the results depend on the processing

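At 1 mg/kg against control the counts were 0 and 0 in all 31 alternatives. At 8 mg/kg against control, 0 rose with no block, slide as a random block, the replicate block, offset 10, Agilent processed signals, the authors' values, median centring, the mean over probes, the highest-ratio probe, the liver channel alone and without slide 3. There 0 fell with no block, the replicate block, offset 10, processed signals, median centring and without slide 3, 1 with slide as a random block, no background subtraction, the authors' values, trend and robust eBayes and without slide 5, and 5 with the liver channel alone. With 1 array left out, 1 rose in every case and 0 to 2 fell. At 8 against 1 mg/kg, 0 rose under the same settings as against control and without slide 5, and 0 to 1 with 1 array left out. There 0 fell with no block, slide as a random block, the replicate block, processed signals, median centring and without slide 5, 1 with offset 10 and without slide 3, 2 with no background subtraction and the authors' values, and 7 with the liver channel alone; 0 to 4 fell with 1 array left out. With the liver channel alone, the falls added against control were Cfb (-0.35, adjusted p = 0.0215), F7 (-0.35, adjusted p = 0.0456) and F11 (-0.30, adjusted p = 0.0459). Those added against 1 mg/kg were C2, Cfb, F5, F7, Klkb1 and Proc (adjusted p of 0.0139 to 0.0395). F9 was added against 1 mg/kg without 8 mg/kg mouse 4 (-0.58, adjusted p = 0.0203). The fit without slide 5 equals those without 1 mg/kg mouse 2 or 8 mg/kg mouse 3, and loess followed by Aquantile leaves ratios unchanged by construction.

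The calls held in these numbers of the 31 alternatives: F10 20, Pros1 17 and Masp1 11 against control; C3 15, F13b 14, F11 13, F10 11 and Masp1 7 against 1 mg/kg. With 1 of 14 arrays left out, F10 kept its call against control in 14. Pros1 kept it in 6, losing it without any control or without 8 mg/kg mouse 1, 2, 4 or 5. Masp1 kept it in 5, losing it without control 1, 2 or 3, 1 mg/kg mouse 1 or 2, or 8 mg/kg mouse 2, 3, 4 or 5. Against 1 mg/kg, C3, F10 and F11 kept it in 6, F13b in 5 and Masp1 in 3. All 5 lost it without 1 mg/kg mouse 1 or 2 or 8 mg/kg mouse 1 or 3. C3 also lost it without 1 mg/kg mouse 4 or 5 or 8 mg/kg mouse 2 or 5, F10 without 1 mg/kg mouse 3 or 4 or 8 mg/kg mouse 2 or 5, F11 without control 1, 1 mg/kg mouse 4 or 5 or 8 mg/kg mouse 2, F13b without control 1 or 3, 1 mg/kg mouse 5 or 8 mg/kg mouse 4 or 5, and Masp1 without control 1 or any treated mouse. F10 became -0.0019 and -0.14 with the highest-ratio probe. F11 was 0.0098 within slide 2. The clotting median against control was 0.10 with median centring and 0.15 within slide 4; the complement and inhibitor medians were -0.38 and -0.39 within slide 3. Correlations were -0.35 (Fga with Fgb), -0.19 (Fga with Fgg) and 0.22 (C8a with C8g) with group means removed, and 0.69 for C8a with C8g when not centred. With second probes, chosen after seeing the data, C8a with C8g gave 0.26 (second of C8a), 0.66 (second of C8g) and 0.50 (both). All features called at 8 mg/kg against control numbered 898, against 122 with the replicate block and 273 with no block; at 8 against 1 mg/kg the numbers were 1162, 150 and 297. Same-numbered mice correlated at -0.424 to 0.246, without adjustment for slide. Every negative value set a mouse on slide 3 against a mouse on another slide. Whether the numbers pair samples can therefore not be told from these values. The causes were not tested.

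The smallest group had 4 mice, C9 and F13b had a dim reference, and the ratios of slide 3 stood apart.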
